A study of Drosophila melanogaster with 3 samples.

Results

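Binding of Ultraspiracle (USP) to 10 transporter genes was read from chromatin immunoprecipitation and sequencing (ChIP-seq) of whole Drosophila melanogaster larvae. The genes were taken by name, as transporter genes. They were the Oatp family, with 8 members (Oatp74D, Oatp26F, Oatp30B, Oatp33Ea, Oatp33Eb, Oatp58Da, Oatp58Db and Oatp58Dc), and the ABC transporter genes E23 and Atet, together 10 of 13945 annotated protein-coding genes. Every peak summit between 1000 bp upstream of a gene and its 3′ end was counted for it. All libraries came from 1 group, the transgenic strain usp-GFP in the wandering phase of the third instar, with males and females pooled and the age given as unknown. Every animal carried usp fused at its C terminus to eGFP, and an anti-GFP antibody was used. The sources used here do not say whether the untagged usp gene was still present, and there was no group of untagged animals or of another stage. Of the 3 biological replicates, numbers 2 and 3 were pooled by the authors for 1 further peak list and for a list thresholded on the irreproducible discovery rate (IDR), while replicate 1 entered neither. Whole larvae were used, so occupancy in a few tissues and weaker occupancy in many cannot be told apart.

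Steroids such as 20-hydroxyecdysone enter and leave insect cells through membrane carriers. USP pairs with the ecdysone receptor EcR, and the pair binds DNA and switches target genes on when the hormone is present. Oatp74D encodes the Ecdysone Importer, an organic anion transporting polypeptide that brings the hormone into target cells. E23 is an ecdysone-induced early gene of the ABC transporter family whose product dampens the hormone response, and Atet encodes an ABC transporter that loads ecdysone into secretory vesicles of the prothoracic gland. The other Oatp genes encode relatives of the importer, and no steroid substrate is assumed for them here.

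The IDR-thresholded list held 11195 summits on dm6, and 26 of them lay at 6 of the 10 genes. E23, Atet, Oatp74D, Oatp30B, Oatp33Ea and Oatp33Eb had at least 1 summit, and Oatp26F and the 3 Oatp58D genes had none. Over all protein-coding genes, 4990 (35.8%) had a summit by the same rule. The share rises with gene length, and in the length classes of these 10 genes it averaged 50%, so 6 of 10 is near the background. The same 6 genes had summits in the pooled list of 30000, where the share over all genes was 49.2%, and again in the 11195 strongest peaks of replicates 1, 2 and 3. In these 3 lists the share over all genes was 35.9%, 33.8% and 36.9%. The number of summits ran from 9 at Oatp74D and 8 at E23 to 1 each at Oatp33Ea and Oatp33Eb.

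**Figure D1:**
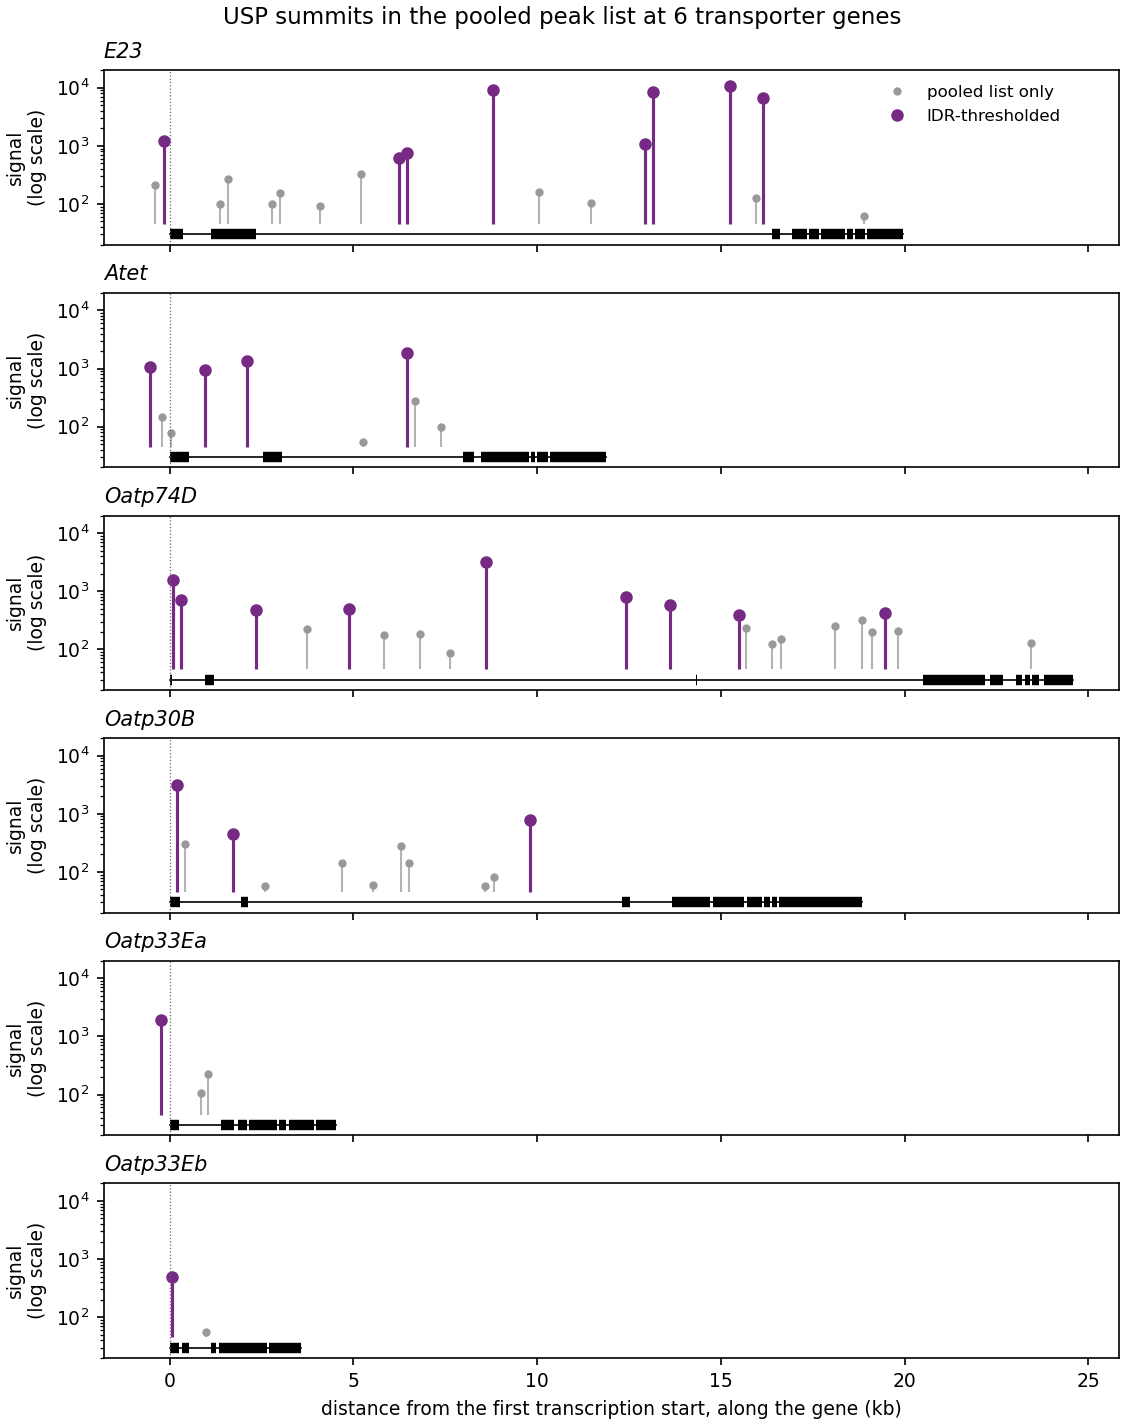
Summits of the pooled peak list along the 6 genes that had any, with distance from the first transcription start in kb on the x axis and the deposited signal on a logarithmic y axis. Purple stems are summits also in the IDR-thresholded list, grey stems are the others, and black boxes are exons of the longest transcript. The 4 tallest stems of E23 stand in its long intron, and the tallest stem of Oatp30B stands at its start.

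Signal here is the score that the peak caller gave each peak. It is not scaled between libraries, so libraries are compared by rank, where rank 1 is the strongest of 30000 peaks of a replicate, or by the percentage of a list's peaks with a lower signal. The strongest summit of E23 exceeded 99.7% ± 0.0527 (SD, n = 3) of a replicate's peaks. Oatp30B and Oatp74D followed with 97.2% ± 0.270 and 97.2% ± 0.431 (SD, n = 3) and did not differ beyond their spread. The strongest summits of Atet and Oatp33Ea exceeded 93.9% ± 0.802 and 93.7% ± 1.63 (SD, n = 3), another pair within their spread. Oatp33Eb came last with 68.5% ± 5.86 (SD, n = 3).

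**Figure D2:**
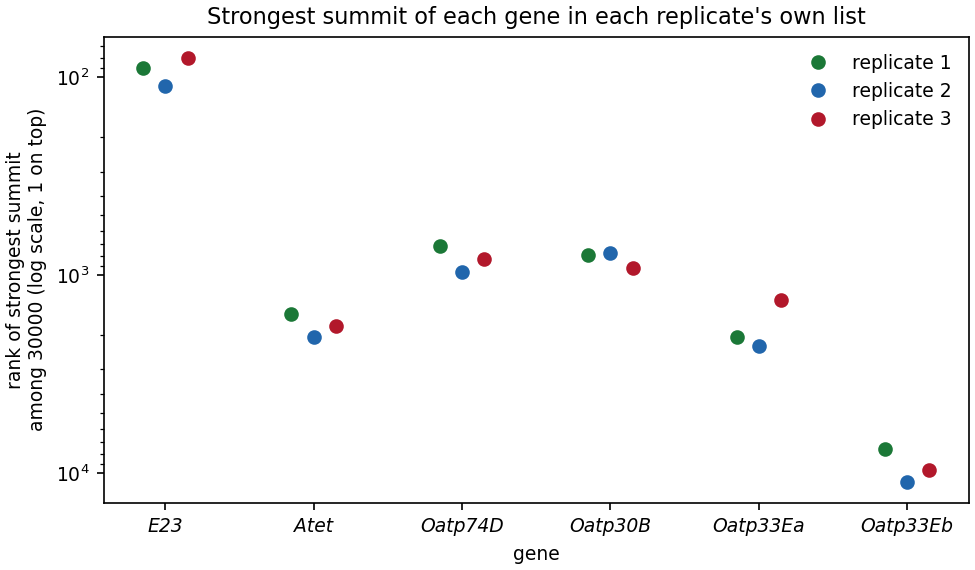
Rank of the strongest summit of each gene in each replicate's own list of 30000, on a logarithmic axis with rank 1 on top. Each point is 1 replicate. E23 lies at ranks 80 to 111 in all 3 replicates, and Oatp33Eb at ranks 7589 to 11084.

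Oatp74D, the importer gene (FBgn0036732), spans 24.6 kb on 3L from 17487118 to 17511693 on the plus strand. Its strongest summit lay at 17495737 in intron 2, 8103 bp from the nearest Oatp74D start and 857 bp from the start of edin, an immune-response gene nested in that intron. Its signal in replicates 1, 2 and 3 was 1122, 754 and 1343, at ranks 711, 969 and 827. All 3 replicates thus placed it among their 1000 strongest peaks. At the start of the gene 2 summits shared an interval, at 17487219 and 17487426. The first had a signal of 576, 371 and 720 in the 3 replicates, at ranks 1938, 2701 and 2056. The second was found in replicates 1 and 3 at ranks 3717 and 4063, and replicate 2 had 1 summit there, at 17487289.

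The other 6 summits of Oatp74D lay in introns 2 and 3, with ranks from 5183 to 10467 in the IDR-thresholded list. The nearest start to those at 17491990, 17499539, 17500738 and 17502605 was that of edin, and to that at 17506589 that of U4-U6-60K. Like the strongest summit, they lie inside Oatp74D by position, and the gene they act on is uncertain. Intron 2 of Oatp74D, of 13.1 kb, made up 53.4% of the gene and held 5 of its 9 summits, and intron 3 held 2. Counts in the replicates' strongest 11195 peaks were 8, 9 and 9, or 8.67 ± 0.577 (SD, n = 3). Genes of 14.6 to 28.6 kb had a median of 1.00 summit, and 62 of 697 such genes had 9 or more. The best rank of Oatp74D in the IDR-thresholded list was 808, and 85 of the 697 genes had a best rank as good. The pooled list added 12 weaker summits, for 21 in all, of which intron 2 and intron 3 held 9 each.

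The sequence under the strongest Oatp74D summit is shown because it holds a near match to the palindromic ecdysone response element (EcRE IR1), in which receptor half-sites face each other across a single base. Bases that match are in capitals, and the mismatched base stays in lower case. The match runs from 17495738 to 17495750, with its centre 7 bp from the summit. Sequences are on dm6, from the RefSeq copy of the genome, 5′ to 3′.
Oatp74D, chr3L:17495677-17495797, + strand: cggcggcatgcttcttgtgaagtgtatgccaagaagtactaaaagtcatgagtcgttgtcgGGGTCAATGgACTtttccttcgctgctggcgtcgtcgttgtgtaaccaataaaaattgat

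Oatp30B (FBgn0032123), on 2L from 9521210 to 9540060 on the plus strand, encodes a relative of the importer. Its strongest summit, at 9521400, lay in the 5′ UTR, 190 bp from the first start. The signal there was 1053, 891 and 1253 in replicates 1, 2 and 3, at ranks 790, 771 and 920. The rank was close to that of the intronic site at Oatp74D, while the position was at the promoter. A near match to EcRE IR1 was centred 45 bp from this summit, from 9521439 to 9521451, and is printed with 8 bases on each side.
Oatp30B, chr2L:9521431-9521459, + strand: gcaattacGGGTCAGTaACCCaaacaaag

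The other summits of Oatp30B were intronic. The summit at 9522937, in intron 1, had ranks 8214, 7899 and 12278 in the 3 replicates, and the last of these is beyond the 11195 strongest. The summit at 9531010, in intron 2 and 3738 bp before the gene's later start, had ranks 3707, 7845 and 5983. CG31883, a gene nested in Oatp30B, had its start 2495 bp from this summit. With 3 summits, Oatp30B stood above the median of its length class, 1.00, and 271 of 697 genes in the class had 3 or more. Its best rank in the IDR-thresholded list was 806, and 84 of the 697 genes had a best rank as good.

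Oatp33Ea (FBgn0032433) and Oatp33Eb (FBgn0032435) lie on either side of CG5421 on 2L, from 12441401 to 12445924 on the minus strand and from 12448484 to 12452047 on the plus strand. The only summit of Oatp33Ea, at 12446163, was 239 bp before its start and also in the 3′ UTR of CG5421, so the gene it belongs to cannot be told apart by position. Its signal was 556, 420 and 961 in the 3 replicates, at ranks 2059, 2281 and 1343. Replicate 3 ranked it highest. The only summit of Oatp33Eb, at 12448537 in its 5′ UTR and 53 bp from its start, was weak. Its signal was 190, 103 and 192, at ranks 7589, 11084 and 9665, and replicate 2 held it just inside its 11195 strongest peaks. In the length class of Oatp33Ea 61 of 697 genes had a best rank as good, and in that of Oatp33Eb 252 of 697.

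Oatp26F and the Oatp58D genes were empty in every list. Oatp26F (FBgn0051634), on 2L from 6625138 to 6632407, had no summit among 30000 in the pooled list or in any replicate. The nearest IDR-thresholded summits stood 12438 bp and 11063 bp outside its body, and the empty stretch between them was 30.8 kb. Oatp58Da (FBgn0050277), Oatp58Db (FBgn0034715) and Oatp58Dc (FBgn0034716) stand in a row on 2R from 22218456 to 22228574. Nearest to this cluster were a summit near ari-2, a ubiquitin ligase gene, 5127 bp away, and one near dve, a homeobox gene, 14524 bp away, which left 29.8 kb without a summit. Replicate 1 alone had a nearer one, 4423 bp from the cluster, at rank 15210. Gaps between neighbouring IDR-thresholded summits had a median of 2.20 kb and a 90th percentile of 23.9 kb. Both stretches were picked because they hold genes without a summit, so they had to exceed the 7270 bp and 10119 bp of those genes. Their length beside other gaps is therefore a description only. In the pooled list the 90th percentile was 5.09 kb, and both stretches were as long as in the shorter list.

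E23 (FBgn0020445) spans 19955 bp on 2L from 3334875 to 3354829 on the minus strand and had the strongest summits inside the regions of the 10 genes. Of its 8 summits, 7 lay in intron 2, which is 14039 bp long and makes up 70.4% of the gene, and 1 lay at the promoter. The 8 summits fell in 5 peak intervals, so some are neighbours within 1 interval. In the IDR-thresholded list 4 of the intronic summits ranked 90, 124, 147 and 250 of 11195, with signals of 10543, 8973, 8305 and 6561, against a median of 746 over the list. The summit at 3339577 had a signal of 3361, 2597 and 4782 in replicates 1, 2 and 3, at ranks 90, 112 and 80. At 3346032 the signals were 2478, 2622 and 3944, at ranks 174, 111 and 115. Replicate 2 therefore placed the site at 3346032 ahead of the other by 1 rank, and replicates 1 and 3 had the opposite order.

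The site at 3341676 had signals of 3261, 1831 and 3174 in the 3 replicates, at ranks 94, 225 and 185. The site at 3338677, in the same interval as the strongest, had signals of 2003, 1850 and 2881, at ranks 263, 220 and 224. Every replicate thus held all 4 sites among its 263 strongest peaks of 30000. The summit at 3341897 beside the one at 3341676 was uneven, at ranks 1191 and 821 in replicates 1 and 2 and 7997 in replicate 3. The promoter summit at 3354997, 168 bp before the start, ranked 3647, 2414 and 3946. Replicate 3 had a stronger summit of rank 2915 at 3354836, 7 bp before the start and too far away to be matched within 100 bp. These promoter summits were weaker than the 4 intronic sites in each replicate. The nearest start to 3338677, 3339577, 3341676 and 3341897 was that of CG15408, at 5863, 6763, 8862 and 9083 bp. The start of E23 was 16152, 15252, 13153 and 12932 bp away. These sites lie inside E23 by position, and the gene they act on is uncertain. The site at 3346032 was nearest to the start of E23, at 8797 bp.

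**Figure D3:**
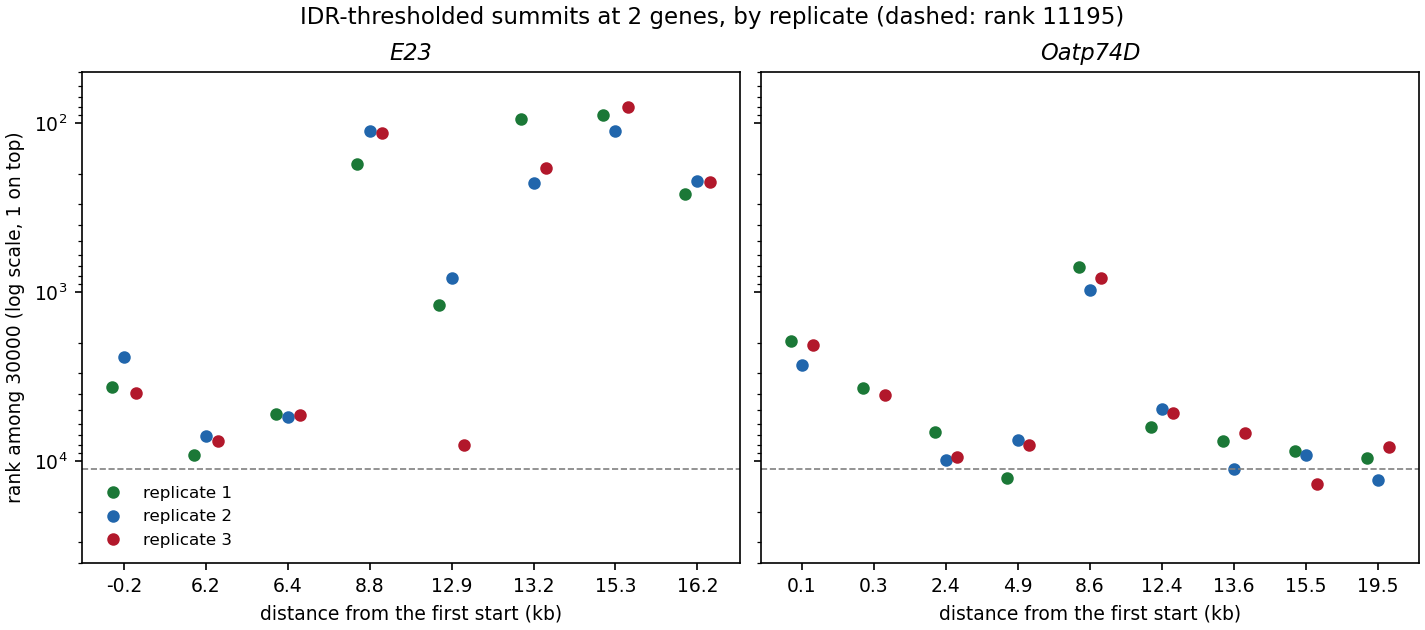
Ranks of the IDR-thresholded summits of E23 and Oatp74D in each replicate's own list, on a logarithmic axis with rank 1 on top, with the sites in order of their distance from the first start, labelled in kb. Each point is the strongest summit of 1 replicate within 100 bp, and the dashed line marks rank 11195. The 4 strong E23 sites lie at rank 263 or better in every replicate, and only 1 Oatp74D site is among the 1000 strongest.

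The sequences under the 4 strong sites of E23 and the uneven one are shown in order of rank to let them be compared. Capitals mark near matches to EcRE IR1 as above. Those at the first and the last line are centred 45 bp and 49 bp from their summits, and the other 3 windows hold none.
E23, chr2L:3339517-3339637, + strand: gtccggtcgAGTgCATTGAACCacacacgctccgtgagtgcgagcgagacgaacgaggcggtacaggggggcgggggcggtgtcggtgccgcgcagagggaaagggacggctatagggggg
E23, chr2L:3345972-3346092, + strand: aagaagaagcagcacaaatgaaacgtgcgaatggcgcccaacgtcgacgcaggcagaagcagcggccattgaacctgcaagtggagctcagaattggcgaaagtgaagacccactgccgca
E23, chr2L:3341616-3341736, + strand: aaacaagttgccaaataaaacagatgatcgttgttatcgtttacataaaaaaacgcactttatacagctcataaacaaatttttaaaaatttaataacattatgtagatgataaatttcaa
E23, chr2L:3338617-3338737, + strand: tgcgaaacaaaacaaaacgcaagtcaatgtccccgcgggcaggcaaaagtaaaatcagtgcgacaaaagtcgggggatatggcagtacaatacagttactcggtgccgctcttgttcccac
E23, chr2L:3341837-3341957, + strand: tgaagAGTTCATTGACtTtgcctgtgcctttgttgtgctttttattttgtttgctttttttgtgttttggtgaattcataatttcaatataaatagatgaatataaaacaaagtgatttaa

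These windows differ in base composition. Within 100 bp of the summit, G and C made up 63.7% of the bases at 3339577, 57.2% at 3346032, 49.3% at 3338677 and 24.4% at 3341676, which are the highest and the lowest values among the 26 summits at the 10 genes. The median over the 26 was 48.0% and over all 11195 summits 44.8%. The strong sites of E23 thus shared an intron and a rank class but not their base composition.

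E23 counted 11, 8 and 9 summits in the replicates' strongest 11195 peaks, or 9.33 ± 1.53 (SD, n = 3). Of the 697 genes of 14.6 to 28.6 kb, 84 had 8 or more summits and 11 had a best rank of 90 or better, E23 included in both, and the median best rank of the genes with a summit was 2817. The genes of this class most like E23, by the smallest difference in the number of summits and then in the logarithm of the best rank, were CG46321 with 8 summits and rank 93, CrebA with 8 and rank 201, and Trf2 with 8 and rank 203. Another 4 summits lay beyond the 1000 bp limit, in the same interval of 3366 bp as the promoter summit of E23. Those at 3355901 and 3356105 had E23 as the nearest start, at 1072 and 1276 bp, and ranked 2426 and 7598. The summit at 3357225 ranked 5457 and was nearer to CG8838. At 3357019, 2190 bp upstream of E23, a summit of rank 129 stood 627 bp from the start of CG8838, so its gene is uncertain. This summit too had a near match to EcRE IR1 within 100 bp, and all 3 replicates held it among their strongest.

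**Figure D4:**
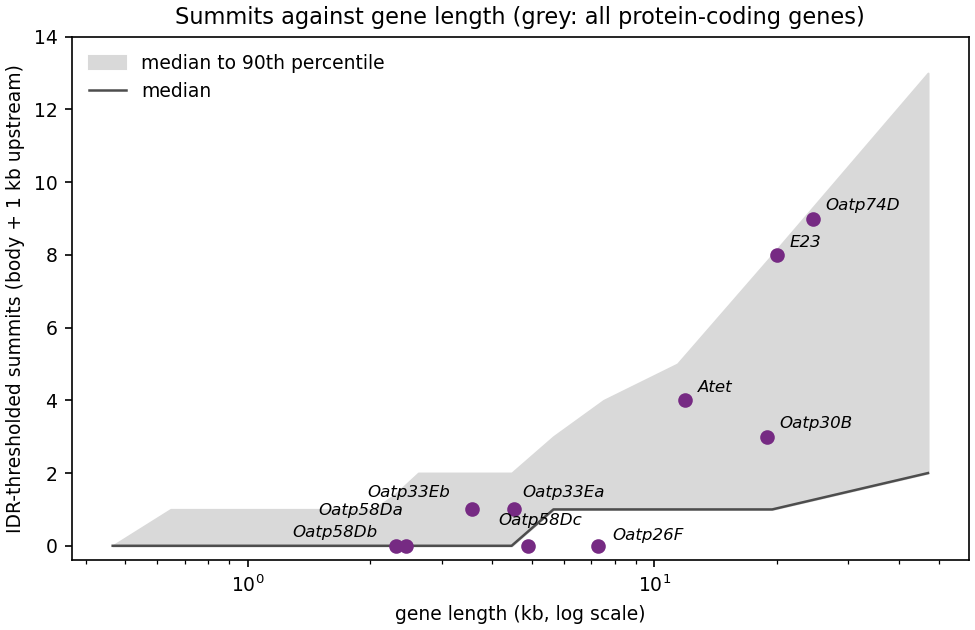
IDR-thresholded summits of each of the 10 genes (purple points) against gene length in kb on a logarithmic axis. The line is the median and the grey band reaches to the 90th percentile of all protein-coding genes in 20 classes of length. E23 and Oatp74D, with 8 and 9 summits, lie close to the upper edge of the band, and the 4 genes without a summit lie at 0.

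Atet (FBgn0020762), on 2L from 4333913 to 4345776 on the plus strand, had 4 summits in the IDR-thresholded list, and each replicate also had 4 among its strongest 11195 peaks. Its strongest, at 4340376 in intron 2, had signals of 655, 454 and 786 in the 3 replicates, at ranks 1575, 2056 and 1817. In intron 1 the summit at 4336015 ranked 2237, 3638 and 3049, and that at 4334878 ranked 4162, 4780 and 4434. The remaining summit lay at 4333375, 538 bp before the start, and ranked 6562, 2990 and 3025, lower in replicate 1 than in the others. A stronger pair stood just outside the region, at 4332469 and 4332672 in the same interval as the upstream summit. They ranked 419 and 1376, lay 1444 bp and 1241 bp before the start of Atet, which was the nearest start, and were held by all 3 replicates. The limit of 1000 bp therefore sets the best rank of Atet, which was 1743 inside it and 419 with 5000 bp. Under the 1000 bp limit, 149 of 697 genes of 9.15 to 14.6 kb had 4 or more summits. A best rank of 1743 or better was held by 140 of them, Atet included in both counts.

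The window at the strongest Atet summit is given for comparison with those of E23, and it holds no match to EcRE IR1 with up to 1 mismatch.
Atet, chr2L:4340316-4340436, + strand: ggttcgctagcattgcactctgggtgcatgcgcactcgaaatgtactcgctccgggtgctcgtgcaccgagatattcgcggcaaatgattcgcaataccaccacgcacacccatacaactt

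Motifs were searched on both strands within 100 bp of all 26 summits and of all 11195 for comparison. No window at the 10 genes held an exact EcRE IR1 (0 of 26, exact 95% interval from 0% to 13.2%), and 0.447% of all windows did. With up to 1 mismatch, 4 of 26 windows had a match, 15.4% (exact 95% interval 4.36% to 34.9%), against 3.74% of all windows. They were the strongest sites of E23, Oatp74D and Oatp30B and the E23 summit at 3341897. Near matches were more frequent at strong summits in the whole list, in 11.4% of the 1000 strongest and 2.99% of the rest. Of the 6 summits at the 10 genes among those 1000, 3 had one, and of the other 20, 1 had one. A match was counted only if it lay wholly inside the window. Within 50 bp of the summit, 1 of 26 windows (3.85%) held a near match, against 2.75% of all windows. At that distance the share at the 10 genes was close to the background. The other near matches, at E23 and Oatp30B, had their centres within 50 bp but reached past it. The lower share therefore depends on that rule.

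The receptor half-site AGGTCA, which is also part of the longer CAAGGTCA, was found in 2 of 26 windows (7.69%), 1 at Atet at 4334880 and 1 at Oatp74D at 17500721, against 6.24% of all windows. The FTZ-F1 type site CAAGGTCA was in none of the 26 (exact 95% interval from 0% to 13.2%) and in 0.875% of all. The E-box CACGTG was in 2 windows, at the promoter summit of E23 and the upstream summit of Atet (7.69%, against 3.06%). GAGAG, the core bound by GAGA factor, was in 15 of 26 (57.7%, exact 95% interval 36.9% to 76.6%), against 34.5% of all. In the whole list it was in 45.5% of the 1000 strongest summits and 33.4% of the rest. Of the 6 summits at the transporter genes among those 1000, 1 had GAGAG, and of the other 20, 14 had it. The higher share at the transporter genes thus came from their weaker summits, opposite to the trend in the whole list. Matches to GAGAG can overlap each other in runs of alternating G and A. These intervals cover counting error only, and summits of 1 gene or interval are not independent of each other. A match is a description of the letters and not a sign that the factor was bound.

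The 26 summits were compared with the replicates one by one. Replicate 1, the library left out of the pooled call, held 25 of them within 100 bp among its 11195 strongest peaks (96.2%, against 87.4% of all summits). Replicates 2 and 3 held 24 each (92.3%, against 84.6% and 90.3%). All 3 replicates held 21 of 26 (80.8%), against 71.2% of all 11195 summits. Every summit of E23, Atet, Oatp33Ea and Oatp33Eb was among these 21, and the missing ones were 4 at Oatp74D and 1 at Oatp30B, with ranks from 6010 to 10467.

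Related transporter genes were read by the same rule to place E23 and Atet in their family. The ABCG family, transporters built of a single ABC and membrane unit that include E23, Atet and the eye pigment genes w, st and bw, had a summit at 12 of 15 genes (80.0%), with a median of 3.00 summits. The median over all protein-coding genes was 0, and 35.8% of them had a summit, or 53.4% in the length classes of these 15 genes. E23 and Atet themselves count among the 12, and the list was chosen with earlier results of these data known. E23 led the family, followed by CG9663 at rank 347, CG9664 at 525, CG31121 at 724 and CG5853 at 1037. CG9663 and CG9664 are next to each other on 2L, 31.7 kb and 40.2 kb from E23. Their best ranks in the 3 replicates were 311, 375 and 380 and 501, 567 and 518, so neither overlapped the range of E23, 80 to 111. Among the pigment genes bw had 3 summits with a best rank of 4051, and w and st had none. CG11069, another gene of the family, had none either.

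The ABCB and ABCC families, which include the multidrug resistance genes, had a summit at 9 of 20 genes (45%, against 52.2% in their length classes), led by Mdr50 at rank 877, CG7627 at 1450, Cftr at 1710, MRP at 2681 and CG7806 at 5653, while Mdr65, Mrp5 and Sur had none. The ABCA and ABCH families had a summit at 4 of 11 (36.4%, against 56.5%), namely Eato at rank 1680, osy at 2133, snu at 7719 and ldd at 10416. Genes for the regulated release of ecdysone from the prothoracic gland, in which Atet acts, had a summit at 3 of 8 (37.5%, against 56.9%). These were the syntaxin gene Syx1A at rank 634, the phospholipase gene Plc21C at 4414 and the IP3 receptor gene Itpr at 5518. Syt1, the synaptotagmin gene of that pathway, had none in the IDR-thresholded list and 2 in the pooled one. No test was made of these shares.

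**Figure D5:**
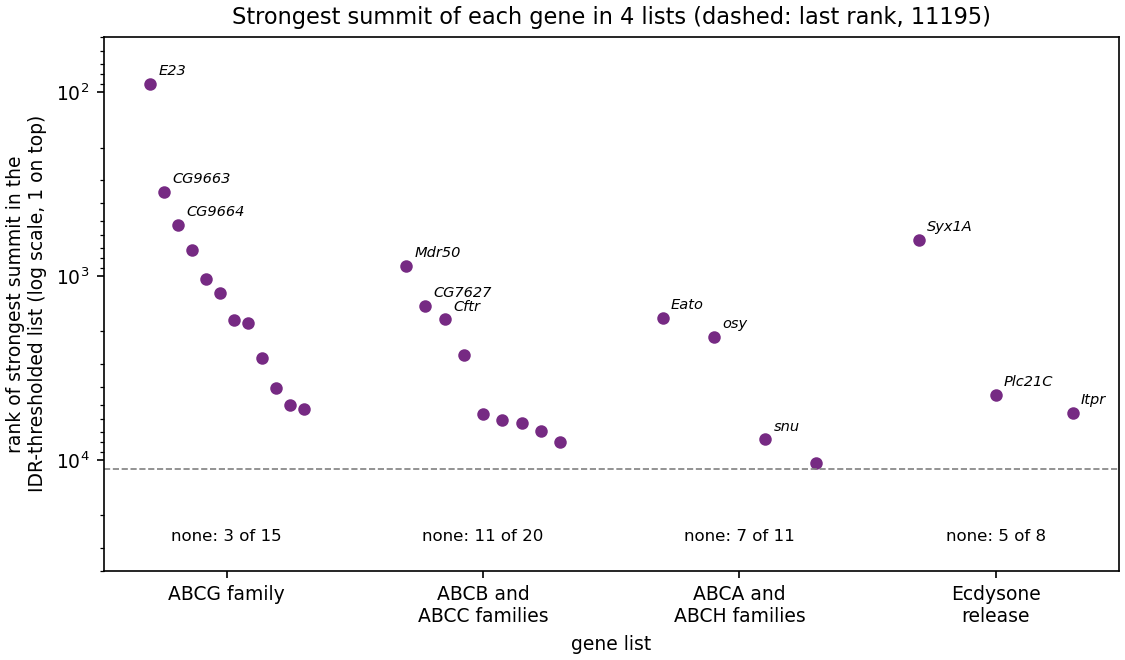
Rank of the strongest IDR-thresholded summit of each gene, on a logarithmic axis with rank 1 on top, in 4 lists of related genes. Each point is 1 gene, the 3 strongest of a list are named, and the number without a summit stands below the dashed line at rank 11195. The ABCG family has the strongest gene, E23 at rank 90, and 3 of its 15 genes have none.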

How the data were processed

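ChIP-seq peaks of 3 biological replicates of 1 group were analysed. Per the file headers, the authors called peaks on genome build dm6 from each replicate's alignment with a control alignment, called a pooled list on replicates 2 and 3, and derived the IDR-thresholded list from these. Which aligner, caller and threshold were used is not given in the sources used here. Signal as deposited is the caller's score per peak, with no scaling from library to library. The pooled list and those of the replicates hold 30000 peaks, and the IDR-thresholded list equals the 11195 strongest pooled peaks. Read depth is unknown from these files, so no interval that needs it is given. Summits at the same base in a pair of replicates made up 1.34% to 1.86%, so no replicate's list repeats that of another replicate.

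Summits were the start plus the offset. Genes came from Ensembl release 115, and 30540 of 30593 start codons (99.8%) read ATG in the RefSeq sequence. Promoters reached 500 bp from a start, and summits within 100 bp were shared. Shares of windows have exact Clopper-Pearson 95% intervals. With 1 group no test between groups was possible, and counts are given beside those over all genes or summits. Python 3.11.15 and scipy 1.17.1 were used, and the motif search was tested on simulated data. The genes named were the 10 members, genes overlapping them or nearest to their summits, the 3 genes most like E23, and in each family the 5 of best rank and some without a summit. Of the 61 symbols of the related families, 11 were found by synonym, 6 named a gene already listed and 1 was not matched. The members and lists were chosen with earlier results of these data known. Alternatives were other upstream lengths, lists, distances and windows, and leaving out each replicate.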

Additional observations from a re-analysis of the deposited data

How the results depend on the processing

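The number of genes with a summit stayed between 5 and 6 under all alternatives. Oatp33Ea was lost with the gene body alone, Oatp33Eb with the stronger part (rank at or above the median) of the list and Atet within 500 bp of a start. The 26 summits became 17 in the stronger part of the list, 65 in the pooled list and 6 within 500 bp of a start, by construction. With 1 summit per interval they became 20. The 80.8% held by all replicates became 78.3% with the gene body alone, 100% in the stronger part of the list, 50% within 50 bp, 84.6% within 200 bp and 96.2% in the replicates' full lists, and ran from 84.6% to 88.5% without 1 replicate. The share over all summits was not computed under these alternatives, so these values have no background beside them and are no trait of these genes. Among the replicates' 11195 strongest peaks alone, the strongest summit exceeded 99.2% of peaks for E23, 83.8% for Atet, 92.5% for Oatp74D, 92.6% for Oatp30B, 83.1% for Oatp33Ea and 15.6% for Oatp33Eb, since weaker peaks were removed. Within 50 bp of the summit, EcRE IR1 with up to 1 mismatch fell from 15.4% to 3.85% of windows and GAGAG from 57.7% to 26.9%, against 2.75% and 19.5% of all windows at 50 bp. Only matches wholly inside the window were counted, and the near matches at E23 and Oatp30B crossed its edge. With 1 summit per interval the E-box share was 0, against 7.69%. No paired analysis was possible because there is 1 group. Read depth was unknown, and the control library was used here only through the authors' peak calls.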

Other observations

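Below the IDR threshold, the pooled list held 39 further summits at the 6 genes. They numbered 12 at Oatp74D, 11 at E23, 8 at Oatp30B, 5 at Atet, 2 at Oatp33Ea and 1 at Oatp33Eb. Of these, 14 (35.9%) had a summit within 100 bp in all 3 replicates' full lists, against 39.9% of all 18805 such summits. At E23 5 of 11 and at Oatp74D 6 of 12 recurred in all 3, and at Atet none of 5 did. The best of them ranked 12082 at E23 and 12205 at Oatp74D in the pooled list.

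Upstream of Oatp74D, 2 summits lay between 1000 bp and 5000 bp from the first start, at 17484239 and 17485811, with ranks of 1760 and 2620. Both were held by all 3 replicates and both were nearer to a start of CG6333 than to Oatp74D, so their gene is uncertain.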
